A study of Mus musculus with 6 samples.

Results

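The proteasome is the protease complex that degrades ubiquitin-tagged proteins, and 34 of its genes were followed here out of 32285 genes in the deposited count matrices. They were taken by symbol as the constitutive subunits and the activators, and all 34 were found. The core holds 31 of them, the genes of the 7 alpha and 7 beta subunits of the 20S barrel and 17 subunits of the 19S cap, and the 3 activators of the 11S family (Psme1, Psme2 and Psme3) were kept apart from it. RNA was measured by droplet single-cell sequencing (10x Genomics Chromium) in host bone marrow cells sorted as CD45.1+, lineage negative, cKit+ and Sca1+ (LSK cells, the compartment of stem and multipotent progenitor cells). The PBS group holds 3 libraries from female C57BL/6J (CD45.1) mice that received PBS alone. The AML group holds 3 libraries from mice of the same strain, sex and age that were given 1000000 cells of C1498, a cultured murine acute myeloid leukemia line that carries CD45.2. In both groups the mice were 8 to 12 weeks old, had no conditioning before injection and were killed on day 21. The sort on CD45.1 selects host cells. The labels do not tie a library to a number of mice. The p-values of AML against PBS measure the spread between libraries. Those of the phase and class comparisons, fitted with a term per library, measure the spread of the differences within libraries.

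In the 20S barrel the outer alpha rings gate the entry of substrates, and the inner beta rings carry the catalytic subunits Psmb5, Psmb6 and Psmb7. The 19S cap recognises ubiquitin chains, and its ATPases, the Psmc genes, unfold the substrate and open the gate. Psme1 and Psme2 encode PA28 alpha and PA28 beta, which form a ring that can replace the 19S cap and are known to be induced by interferon gamma along with the immunoproteasome subunits Psmb8, Psmb9 and Psmb10. Psme3 encodes PA28 gamma, a nuclear relative. Blood-forming stem cells are known for low rates of protein synthesis compared with their dividing progeny.

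The authors' table of cells holds 16822 cells in 5 of the 6 libraries, between 693 and 6838 per library with 1945659 to 32123508 UMIs (unique molecular identifiers, counted as molecules), and 0 cells of AML replicate 2. AML against PBS was hence a comparison of 2 libraries with 3. AML replicate 1 stood apart, with 693 cells, a median of 2393 UMIs per cell against 4015 to 9586 elsewhere, and 14.7% of its cells in G1 against 49.002% to 58.2% in the other 4. At most 12 kept barcodes were shared by any 2 libraries, whereas over all barcodes AML replicate 2 shared 2472 with PBS replicate 3. The LSK markers Kit, Ly6a and Ptprc together held 270.0 to 371 plain CPM (UMIs per 1000000 of the library total) in the 5 libraries, and the neutrophil list (7 genes) held 2.21 to 17.8. There were 26.2 to 414 for 6 erythroid markers. The 6 T and NK cell markers held 150.3 to 179.6 plain CPM in the PBS libraries and 186 to 187 in the AML libraries. The 6 monocyte and macrophage markers held 7.401 to 10.9 plain CPM in the PBS libraries and 17.99 to 22.4 in the AML libraries, so that both lists moved with the group, and their part in the results was not tested. The 7 B and plasma cell markers held 1971 to 3228 plain CPM.

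Proteasome transcripts were a small and even share of the LSK transcriptome. The 31 core genes together made up 0.511% to 0.624% of all UMIs in the 5 libraries. From here on, values for PBS are in the order of replicates 1, 2 and 3, and those for AML in the order of replicates 1 and 3. The summed core level, in plain CPM, was 6241, 5556 and 5739 in PBS and 5114 and 6065 in AML. The 2 groups overlapped, with AML replicate 1 the lowest of the 5 libraries and AML replicate 3 the second highest in rank after PBS replicate 1. Psme1 was measured at 852, 743 and 841 in PBS and 878 and 904 in AML, also in plain CPM. Psme2 was measured at 303, 231 and 322 in PBS and 336 and 355 in AML. Psme3 was measured at 20.98, 17.97 and 21.2 in PBS and 32.9 and 25.6 in AML. The reads of Psme2 could be shared with Psme2b, a near copy, which itself held 4 to 55 UMIs per library.

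**Figure D1:**
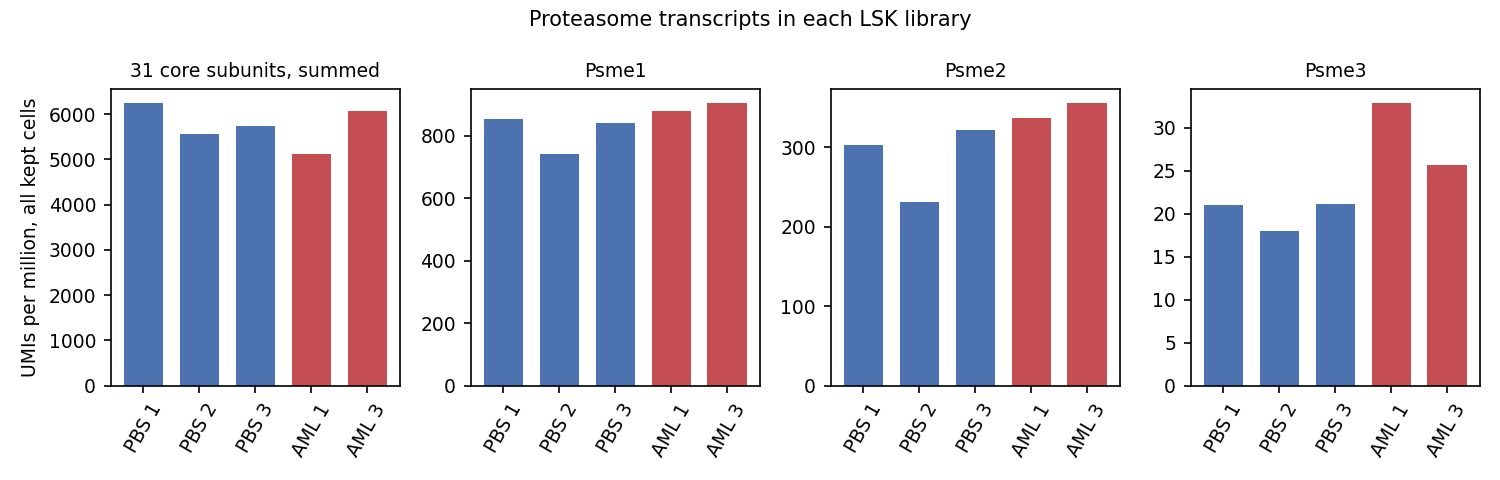
Bars give the level of the 31 summed core genes, Psme1, Psme2 and Psme3 in each library, in plain CPM over all kept cells (blue PBS, red AML, 1 bar per library, no error bar since a bar is 1 library). The core sum overlaps between the groups, from 5114 in AML replicate 1 to 6241 in PBS replicate 1. The AML bars of Psme1, Psme2 and Psme3 lie above every PBS bar, with Psme3 at 32.9 and 25.6 in AML against at most 21.2 in PBS. The Psme3 bar of AML replicate 1 rests on 64 UMIs. The share of all genes with such a split is given with the AML comparison, after another scaling.

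The 34 genes are spread over 14 chromosomes of the GRCm38 build in GENCODE M21, all as protein-coding genes. Psme1 (chr14:55578123-55581529, plus strand) and Psme2 (chr14:55587441-55591113, minus strand) are neighbours that lie 5911 bases apart on opposite strands, and Psme3 lies elsewhere (chr11:101316213-101323537, plus strand). Promoter windows of 300 bases (250 before and 50 after the start site, RefSeq, GRCm38.p6) were on hand for 28 members, 25 of them core genes. The windows of 4 members are shown, those of Psme1 and Psme2 because they are set apart here as interferon-induced, that of Psmd13 because it had the largest core log2 fold change in G2M and in all 3 progenitor classes, and that of Psmb5 as a catalytic subunit. Capitals mark a match, on either strand, to an interferon-stimulated response element (GAAA and GAAA with 2 bases between), a gamma-activated site (TTCNNNGAA), an antioxidant response element (TGACNNNGC) or a CCAAT box (CCAAT), and positions count from 0 at the start site.
Psme1, chr14:55578244-55578543, plus strand: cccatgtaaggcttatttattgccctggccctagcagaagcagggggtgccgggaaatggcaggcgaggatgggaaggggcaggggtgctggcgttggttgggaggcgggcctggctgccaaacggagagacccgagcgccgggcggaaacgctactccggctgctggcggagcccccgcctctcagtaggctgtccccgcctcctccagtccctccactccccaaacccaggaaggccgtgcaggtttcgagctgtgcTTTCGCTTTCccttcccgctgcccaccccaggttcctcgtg
Psme2, chr14:55591052-55591351, minus strand: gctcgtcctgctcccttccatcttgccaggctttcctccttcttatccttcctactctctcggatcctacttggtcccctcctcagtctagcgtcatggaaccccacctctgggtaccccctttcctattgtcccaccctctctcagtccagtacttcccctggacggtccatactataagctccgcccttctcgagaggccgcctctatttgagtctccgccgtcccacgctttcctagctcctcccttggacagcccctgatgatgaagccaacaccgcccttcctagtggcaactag
Psmd13, chr7:140882144-140882443, plus strand: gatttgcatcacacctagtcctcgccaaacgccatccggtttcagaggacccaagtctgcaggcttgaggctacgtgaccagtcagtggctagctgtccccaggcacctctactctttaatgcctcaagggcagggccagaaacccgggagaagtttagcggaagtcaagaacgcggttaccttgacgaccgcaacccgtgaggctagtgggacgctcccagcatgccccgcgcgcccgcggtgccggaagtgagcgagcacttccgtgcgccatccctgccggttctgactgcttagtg
Psmb5, chr14:54617946-54618245, minus strand: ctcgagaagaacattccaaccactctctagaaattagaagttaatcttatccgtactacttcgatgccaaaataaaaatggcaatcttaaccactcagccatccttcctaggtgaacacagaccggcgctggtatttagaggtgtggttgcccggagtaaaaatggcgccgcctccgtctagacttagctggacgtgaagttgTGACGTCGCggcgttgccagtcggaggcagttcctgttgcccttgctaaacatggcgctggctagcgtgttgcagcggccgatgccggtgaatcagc
The window of Psme1 holds an interferon-stimulated response element match from position 9 to 18, and that of Psmb5 an antioxidant response element match from -47 to -39. Those of Psme2 and Psmd13 hold none of the 4 motifs, and each match or lack of one is a property of these letters only. An interferon-stimulated response element match was found in 3 of the 28 members (Psme1, Psmb3 and Psmd4, 10.7%) and in 3.99% of all 27025 genes with a window. A gamma-activated site was found in 1 (Psmd2, 3.57%) against 9.55% of all genes, an antioxidant response element in 4 (Psmb5, Psmb6, Psmc6 and Psmd12, 14.3%) against 13.99%, and a CCAAT box in 11 (39.3%) against 41.1%. Copies of Psmb5, Psmb6 and Psmb7 are annotated as pseudogenes, so the split of reads between these genes and their copies is uncertain.

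The cells were next compared by the cell cycle phase that the authors assigned to each cell from cell cycle gene scores. None of the 34 members is in the cell cycle gene lists of Seurat (0 of 34). All 34 members were higher in S than in G1, with a median log2 fold change of 0.52 and a range of 0.26 to 0.87 (edgeR quasi-likelihood test on UMIs summed per library and phase with a term per library, Benjamini-Hochberg adjustment over 12236 genes). Over all genes tested 30% passed in this direction, and the median was -0.04. All 34 were also higher in G2M than in G1, by a median log2 fold change of 0.49 (0.17 to 0.84), against 28.4% of all genes passing upward and an overall median of -0.05. The rise was also seen within libraries, since 33 members were higher in S than in G1 in 5 of 5 libraries, all but Psme3. In G2M 29 were higher in 5 of 5, the others (Psmd2, Psmd6, Psmd8, Psmd11 and Psme3) in at least 4. The share of all genes higher in 5 of 5 libraries is not given here. The summed core level was 4978 ± 343 plain CPM in G1, 6273 ± 514 in S and 6158 ± 679 in G2M (SD, n = 5 libraries). Cells in S and G2M also yielded more UMIs, with a median of 3541 UMIs per cell in G1, 6012 in S and 7066 in G2M, and a core gene count per cell of 19.3, 39.1 and 48.3 UMIs in the median library. Without AML replicate 1 all 34 members were still called higher in both phases, against 29.5% of all genes in S and 28.2% in G2M. So they were in the PBS libraries alone, against 29.4% and 28.5%.

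**Figure D2:**
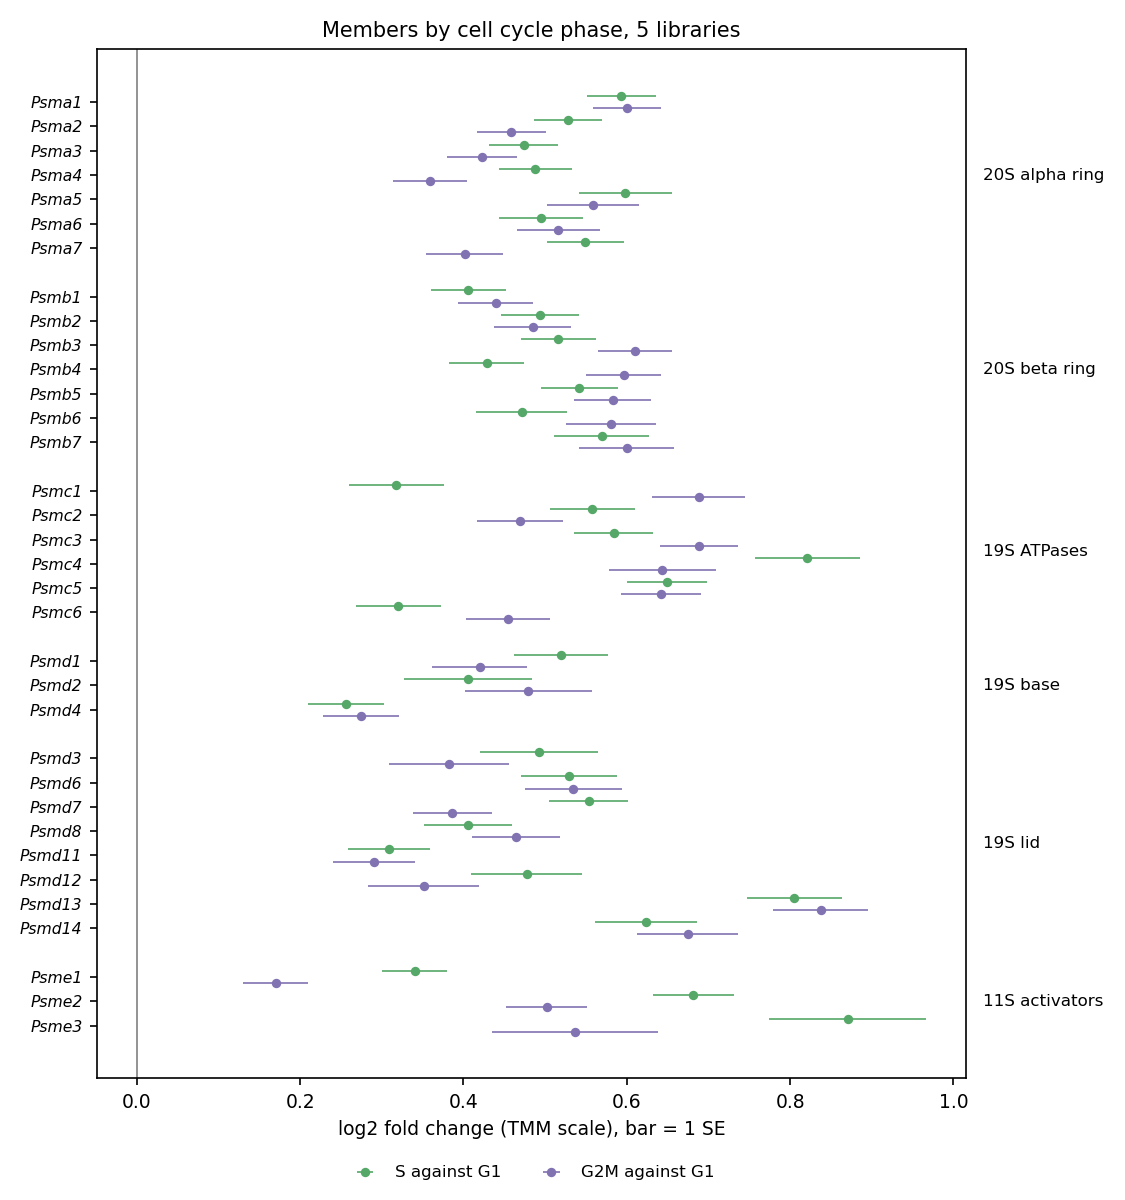
Points give the log2 fold change of each member between phases (green S against G1, purple G2M against G1) from edgeR over 5 libraries on the TMM scale, bars give 1 SE, and genes are grouped by their place in the complex. Every point lies to the right of 0, from 0.17 for Psme1 in G2M to 0.87 for Psme3 in S.

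The difference held for each part of the complex. The alpha ring rose by medians of 0.53 in S and 0.46 in G2M on the log2 scale, the beta ring by 0.49 and 0.58, the 6 ATPases by 0.57 and 0.64, and the 8 lid subunits by 0.51 and 0.43. The 3 other base subunits, Psmd1, Psmd2 and the ubiquitin receptor Psmd4, had medians of 0.41 and 0.42. CPM values from here on are counts per 1000000 after TMM scaling, which is fitted within the set of sums compared, so that a CPM is read only within its own comparison. Psmd13, a lid subunit, stood at 65.3, 76.3 and 53.4 CPM in PBS and 33.3 and 61.1 CPM in AML in G1. In S it stood at 109, 155, 90.6, 50.02 and 106 CPM in the same order of libraries and in G2M at 114, 156, 89.9, 72.8 and 103 CPM. It was higher in both phases in every library (log2 fold change 0.81 ± 0.06 (SE), adjusted p = 2.58e-12 in S, and 0.84 ± 0.06, adjusted p = 1.41e-12 in G2M). Psma1, of the alpha ring, stood at 189.7, 166, 197, 139.7 and 169 CPM in G1, 274, 255, 290.2, 224 and 267 CPM in S and 282, 247, 299, 223 and 263 CPM in G2M. Its lowest S library lay above its highest G1 library (log2 fold change 0.59 ± 0.04 (SE), adjusted p = 2.06e-12 in S, and 0.60 ± 0.04, adjusted p = 1.82e-12 in G2M). The ATPase Psmc5 went from 121 ± 12.3 CPM in G1 to 181 ± 35.4 CPM in S (SD, n = 5, log2 fold change 0.65 ± 0.05 (SE), adjusted p = 7.67e-12). The ATPase Psmc3 went from 93.6 ± 19.8 CPM in G1 to 149 ± 26.6 CPM in G2M (SD, n = 5, log2 fold change 0.69 ± 0.05 (SE), adjusted p = 1.49e-12), with PBS replicate 2 above the other 4 libraries in each phase. The smallest core change was that of Psmd4, at 0.26 in S and 0.27 in G2M on the log2 scale.

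Among the 11S genes, Psme3 had the largest fold change of the 34 members in S and Psme1 the smallest in G2M. Psme2 stood at 222, 189.9 and 266 CPM in PBS and 266 and 249 CPM in AML in G1. It stood at 342, 316, 426, 372 and 419 CPM in S and at 308, 234, 389.8, 335 and 395 CPM in G2M. The 5 S libraries of Psme2 lay above all 5 G1 libraries (log2 fold change 0.68 ± 0.05 (SE), adjusted p = 3.1e-12 in S, and 0.50 ± 0.05, adjusted p = 1.67e-09 in G2M). Psme3 stood at 14.6, 13.7 and 18.2 CPM in PBS and 39.9 and 15.3 CPM in AML in G1. It stood at 26.7, 24.5, 30.6, 29.7 and 33.4 CPM in S and at 19.4, 20.4, 21.97, 32.9 and 28.7 CPM in G2M. In 4 libraries Psme3 was higher in S and G2M than in G1, and in AML replicate 1 it was highest in G1, from 12 UMIs in 102 cells (log2 fold change 0.87 ± 0.10 (SE), adjusted p = 1.26e-08 in S, and 0.54 ± 0.10, adjusted p = 5.82e-05 in G2M). Psme1 stood at 712, 697 and 836 CPM in PBS and 699 and 773 CPM in AML in G1. Its S values were 887, 898, 1006, 966 and 988 CPM and its G2M values 799, 729.9, 905, 878 and 912 CPM. Its rise was 0.34 ± 0.04 (SE) in S on the log2 scale (adjusted p = 3.71e-08) and 0.17 ± 0.04 in G2M (adjusted p = 0.000703). With plain library sizes in place of TMM factors the G2M value of Psme1 was -0.0047 (adjusted p = 0.917), so that its direction in G2M depends on the scaling. It was not called with cells thinned to 2000 UMIs each (0.09, adjusted p = 0.144). Plain library sizes moved the median of all genes from -0.04 to -0.20 in S and from -0.05 to -0.23 in G2M, and left 33 and 31 of 34 members higher. Genes called higher went from 3667 against 3806 lower to 2690 against 5444 in S, and from 3474 against 3579 to 2284 against 5648 in G2M.

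Other genes of the pathway did not all move with the members. The 3 immunoproteasome subunits rose in both phases, Psmb8 by 0.51 in S and 0.35 in G2M, Psmb9 by 0.56 and 0.59, and Psmb10 by 0.33 and 0.12 (log2 fold changes, all with adjusted p under the threshold of 0.05). The 5 chaperones that assemble the 20S barrel (Pomp and Psmg1 to Psmg4) also rose in both, by 0.45 to 0.79 in S and 0.26 to 0.62 in G2M. Of 11 further proteasome genes tested, 6 rose and 1 fell in S, and 7 rose and 2 fell in G2M. The largest rise among these was that of Uchl5, a deubiquitinase of the cap (0.92 in S and 0.61 in G2M). Psme4, which encodes the alternative activator PA200, fell (-0.40 ± 0.08 in S, adjusted p = 7.8e-05, and -0.40 ± 0.08 in G2M, adjusted p = 9.72e-05). Its level was 32.7 ± 3.799 CPM in G1, 26.2 ± 6.37 CPM in S and 26.1 ± 6.800 CPM in G2M (SD, n = 5). Among 3 regulators of proteasome gene transcription none rose, and Nfe2l2 fell by 0.20 in S and by 0.25 in G2M on the log2 scale. Ddi2, the protease that activates Nfe2l1, fell in G2M (-0.45, adjusted p = 1.91e-05) and was at -0.16 in S with no call, and Nfe2l1 was at -0.04 and -0.08 with no call. Of 11 ubiquitin and shuttling genes 4 rose and 2 fell in S, and 5 rose and 1 fell in G2M. Of 5 genes that load peptides onto class I molecules, Tap1 rose (0.27 and 0.37) and B2m fell (-0.25 and -0.13) in both phases. Tap2 and Tapbp also fell in G2M, with log2 fold changes of -0.19 (adjusted p = 0.0144) and -0.20 (adjusted p = 0.024).

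The 4 classes of the authors, HSC (stem cells) and the multipotent progenitors MPP2, MPP3 and MPP4, were assigned from module scores whose genes are not in the sources used here, so that a member could be among them. All 34 members were higher in MPP2 than in HSC, with a median log2 fold change of 0.63 (0.33 to 0.97), against 28.3% of the 11705 genes tested and a median of -0.03 over them. In MPP3 33 of 34 were higher, all but Psmd2, with a median of 0.56 (0.20 to 0.84), against 25.5% of all genes. In MPP4 13 of 34 were higher, with a median of 0.18 (0.04 to 0.42), against 15.9% of all genes. All 34 differed between the classes in a joint test, as did 67.7% of all genes. Some markers of other lineages were also called in all 3 tests against HSC, and their part was not tested. In MPP2, MPP3 and MPP4 Hba-a2 was at -2.91, -2.18 and -6.23 on the log2 scale. Csf1r was at 3.63, 5.01 and 3.80, and Ighm at 1.78, 8.77 and 2.78. The 13 members higher in MPP4 were Psma1 of the alpha ring, Psmb2, Psmb3, Psmb5 and Psmb7 of the beta ring, the ATPases Psmc2 and Psmc5, the lid subunits Psmd6, Psmd8, Psmd13 and Psmd14, and Psme1 and Psme2. The summed core level was 4910.0 ± 488 plain CPM in HSC, 6282 ± 643 in MPP2, 5533 ± 844 in MPP3 and 5373 ± 306 in MPP4 (SD, n = 5 libraries). Neighbours in the order MPP2, MPP3, MPP4 and HSC differed by less than the larger of their SDs. These SDs include the spread between libraries, which the library term of the fits removes. The MPP4 count was 5 without PBS replicate 3 (all genes 11.7%), 8 without AML replicate 3 (12.9%) and 17 without AML replicate 1 (18%). It was 4 with cells thinned to 2000 UMIs each, where 11% of all genes passed. Without AML replicate 1 the counts in MPP2 and MPP3 were 34 and 33, against 28.1% and 27% of all genes. Within libraries, 32 of 34 members were higher than in HSC in 5 of 5 libraries in MPP2, 27 in MPP3 and 21 in MPP4. The others were higher in at least 4 libraries in MPP2 and MPP3 and in at least 3 in MPP4, and the share of all genes is again not given.

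**Figure D3:**
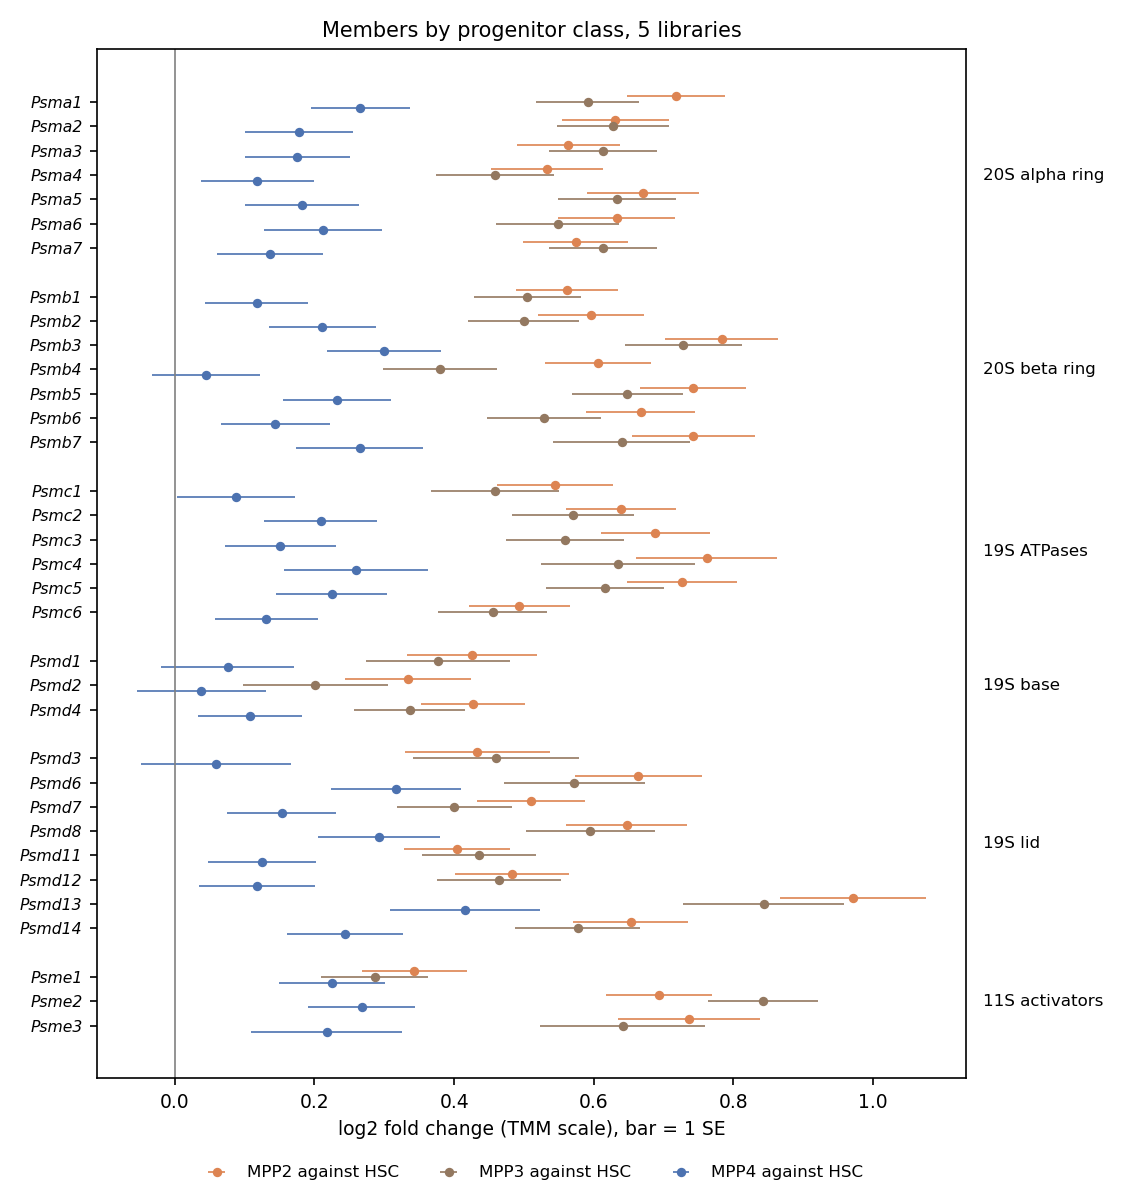
Points give the log2 fold change of each member against HSC (orange MPP2, brown MPP3, blue MPP4) from edgeR over 5 libraries on the TMM scale, and bars give 1 SE. The MPP2 points run from 0.33 to 0.97, the MPP3 points from 0.20 to 0.84, and the MPP4 points from 0.04 to 0.42.

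Psma1, Psmb3 and Psmb5 had the lowest p among the core genes in MPP2 and in MPP3. Psma1 stood at 198, 163 and 178 CPM in PBS and 103 and 157 CPM in AML in HSC, at 288, 269, 311, 239 and 265 CPM in MPP2 and at 259, 225, 275, 209 and 272 CPM in MPP3. It was lowest in AML replicate 1 in each of these classes (log2 fold change 0.72 ± 0.07 (SE), adjusted p = 3.77e-10 in MPP2, and 0.59 ± 0.07, adjusted p = 7.72e-08 in MPP3). Psmb5, a catalytic subunit, stood at 242, 246 and 269 CPM in PBS and 171 and 219 CPM in AML in HSC, at 373, 426, 469, 199.8 and 391 CPM in MPP2 and at 326, 373, 434, 169.9 and 424 CPM in MPP3. In the 3 PBS libraries and AML replicate 3 it was higher in both classes than in HSC, whereas in AML replicate 1 it was higher in MPP2 and slightly lower in MPP3 (log2 fold change 0.74 ± 0.08 (SE), adjusted p = 1.1e-09 in MPP2, and 0.65 ± 0.08, adjusted p = 5.49e-08 in MPP3). Psmb3, of the beta ring, went from 305 ± 83.8 CPM in HSC to 546 ± 89.4 CPM in MPP2 and 526 ± 95.4 CPM in MPP3 (SD, n = 5). Its log2 fold changes were 0.78 ± 0.08 (adjusted p = 1.27e-09) and 0.73 ± 0.08 (adjusted p = 1.7e-08). In MPP4 the lowest p among the core genes were those of Psmd13 (log2 fold change 0.42 ± 0.11 (SE), adjusted p = 0.00316), Psma1 (0.27 ± 0.07, adjusted p = 0.00406) and Psmb3 (0.30 ± 0.08, adjusted p = 0.00508). Psma1, Psmb5 and Psmb3 also had the lowest p among the core genes in the joint test of the classes (adjusted p = 5.49e-10, 6.54e-10 and 7.89e-10). Psmd13 had the largest core log2 fold change in all 3 progenitor classes, at 0.97, 0.84 and 0.42 on the log2 scale.

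Among the 11S genes Psme2 stood at 231, 179.6 and 255 CPM in PBS and 228 and 205 CPM in AML in HSC. It stood at 329, 287, 419, 343 and 390.5 CPM in MPP2, at 329.5, 353, 437, 379 and 469 CPM in MPP3 and at 256, 224, 297, 267 and 274 CPM in MPP4, so that every MPP2 and MPP3 library lay above every HSC library. Its log2 fold change was 0.69 ± 0.08 (SE) in MPP2 (adjusted p = 4.1e-09), 0.84 ± 0.08 in MPP3 (adjusted p = 3.38e-10) and 0.27 ± 0.08 in MPP4 (adjusted p = 0.00755). Psme1 went from 693 ± 72.4 CPM in HSC to 904 ± 67.1 CPM in MPP2, 865 ± 131 CPM in MPP3 and 830.0 ± 54.2 CPM in MPP4 (SD, n = 5). Its log2 fold changes were 0.34 ± 0.08 (adjusted p = 0.000258), 0.29 ± 0.08 (adjusted p = 0.00242) and 0.23 ± 0.08 (adjusted p = 0.0214). With plain library sizes they were 0.06, -0.10 and 0.14 with no call and with a turn of direction in MPP3. Psme3 went from 14.995 ± 2.26 CPM in HSC to 28.3 ± 4.55 CPM in MPP2 (SD, n = 5, log2 fold change 0.74 ± 0.10 (SE), adjusted p = 3.25e-07). It stood at 26.6 ± 6.94 CPM in MPP3 (0.64 ± 0.12, adjusted p = 3.56e-05) and 19.9 ± 3.82 CPM in MPP4 (0.22 ± 0.11, adjusted p = 0.142, not called). With plain library sizes the median of all genes moved from -0.03 to -0.29 in MPP2 and from -0.02 to -0.36 in MPP3, and 28, 16 and 2 of 34 members were higher in MPP2, MPP3 and MPP4. Genes called higher against lower then numbered 1816 and 5442 in MPP2 in place of 3317 and 3259, 1327 and 5742 in MPP3 in place of 2981 and 2828, and 1246 and 2177 in MPP4 in place of 1856 and 1800.

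The classes differ in phase, with 84.9% of HSC cells in G1 against 11.5% of MPP2, 46.2% of MPP3 and 70.9% of MPP4 cells. The 2 divisions were therefore also fitted together, on sums per library, class and phase. In this fit a library gave several sums per phase and per class, so that its counts of calls are not at the level of libraries. With both as terms the median member was 0.35 higher in S and 0.30 higher in G2M on the log2 scale (33 and 31 of 34 called, against 30.4% and 24.9% of all genes). It was 0.32, 0.36 and 0.10 higher in MPP2, MPP3 and MPP4 than in HSC (29, 31 and 7 of 34 called, against 17.4%, 20.4% and 12.7% of all genes). Within G1 alone the summed core level was 4898 ± 355 plain CPM in HSC (SD, n = 4, PBS replicates 1, 2 and 3 and AML replicate 3). It was 5753 ± 274 in MPP2 (SD, n = 4, replicates 1 and 3 of both groups), and the other libraries had fewer than 20 such cells. In the 3 libraries that gave both, PBS replicates 1 and 3 and AML replicate 3, the level was 5424, 4807 and 4684 in HSC and 6161, 5654 and 5621 in MPP2, higher in MPP2 in each. Over all 5 libraries it was 5146 ± 279 in MPP4 and 4189 ± 932 in MPP3 (SD, n = 5). The MPP3 value includes cluster 6, a cluster with B and plasma cell markers, 91.5% of whose cells were in G1. Without clusters 6, 7 and 8, an alternative added after the data were seen, the G1 level of MPP3 was 5656 ± 496 (SD, n = 4, replicates 1 and 3 of both groups), since PBS replicate 2 then had fewer than 20 such cells. Those of HSC, MPP2 and MPP4 were 4902, 5755 and 5146. In the same 3 libraries as above, PBS replicates 1 and 3 and AML replicate 3, the G1 level of MPP3 was 5019, 4339 and 5025 with these clusters, above that of HSC in AML replicate 3 alone. Without the clusters it was 6006, 5617 and 6031 in MPP3 and 5434, 4806 and 4692 in HSC, higher in MPP3 in each.

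Of the other pathway genes, the 3 immunoproteasome subunits were higher in MPP2 and MPP3 than in HSC, and Psmb8 and Psmb9 also in MPP4, where Psmb8 reached 0.51 ± 0.09 (adjusted p = 2.85e-05). All 5 assembly chaperones were higher in MPP2 (0.39 to 0.84 on the log2 scale) and in MPP3 (0.29 to 0.91), and Pomp and Psmg3 were higher in MPP4. Psme4, the PA200 gene, was highest in HSC, with log2 fold changes of -0.56, -0.46 and -0.32 in MPP2, MPP3 and MPP4 (adjusted p = 3.99e-05, 0.0022 and 0.0181). Of the 11 further proteasome genes, 7 were higher and 2 lower in MPP2, 5 higher and 1 lower in MPP3, and 1 higher and 2 lower in MPP4. Nfe2l2 was lower in MPP2 (-0.32) and was the only call among the 3 transcription regulators in the tests of each class against HSC. The joint test over the 4 classes passed for Ddi2 (adjusted p = 0.00088) and Nfe2l2 (adjusted p = 0.00827). Of the 11 ubiquitin and shuttling genes, 5 were higher in MPP2, 2 in MPP3 and 0 in MPP4, and 1 was lower in each class (Uba6 in MPP2 and MPP3, Ubqln2 in MPP4). Of the 5 peptide loading genes 0 passed in MPP2, Tapbp was higher in MPP3 (0.45) and Tap2 in MPP4 (0.52).

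The authors' 9 clusters were made from the expression of these cells, so that their levels are given as a description, per library with at least 20 cells of a cluster. The summed core level was lowest in cluster 6, at 2089.8, 2095 and 2321 plain CPM in its 3 libraries. In the other 8 clusters the median library lay between 5071 in cluster 0 and 7368 in cluster 7. Cluster 6 is the cluster in which B and plasma cell markers held 87503 to 170556 plain CPM, against a median library of at most 354 in each other cluster and a highest library of 1999, in cluster 7. Its cells carried 19.02 to 23.9 core UMIs each, and cluster 0 cells 23.4 in the median library. Psme1 was lowest in the same cluster, at 247 to 338 plain CPM against medians of 574 to 947 elsewhere. By its median library cluster 7 had the highest core level and the second lowest Psme1 in rank. Psme2 was highest in cluster 8, at 420.4, 476 and 513 plain CPM, next to a median of 428 in cluster 4, and these 2 clusters overlapped. Cluster 8 held T and NK cell markers at 646 to 1726 plain CPM, against a highest library of 304 elsewhere. Erythroid markers reached 22834 plain CPM in cluster 7 and 18893 in cluster 6, against at most 464 elsewhere, and the part of these markers in the levels was not tested. Cluster 6 lay almost wholly in MPP3, with 172 of its 177 cells, and made up 29.3% of the 41 MPP3 cells of PBS replicate 2 against 3.51% to 9.48% in the other libraries. Without clusters 6, 7 and 8, an alternative added after the data were seen, the members higher than in HSC numbered 34 in MPP2, 34 in MPP3 and 15 in MPP4, against 29.2%, 26.4% and 17.1% of all genes. In S and in G2M they numbered 34, against 30.8% and 29.7%.

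**Figure D4:**
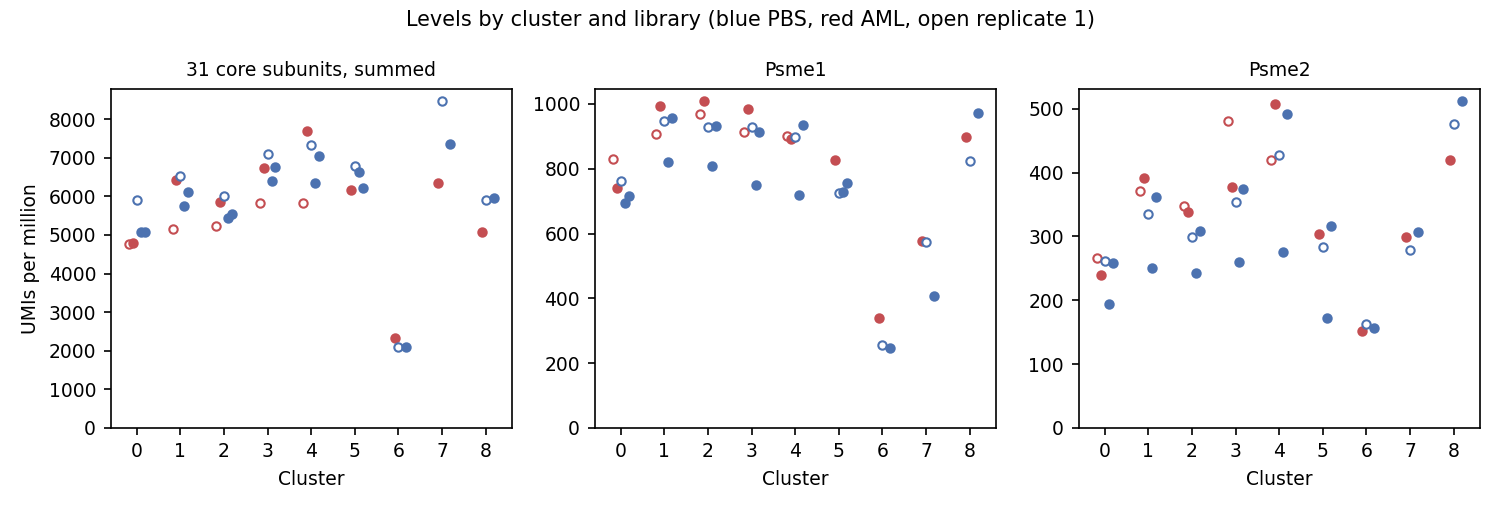
Points give the level of the summed core, Psme1 and Psme2 in each cluster and library (blue PBS, red AML, open symbols replicate 1), in plain CPM, for sums of at least 20 cells. Cluster 6 lies lowest for the core at 2089.8 to 2321, and cluster 8 reaches 513 for Psme2.

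The comparison the study was built on, leukemia-bearing against control mice, showed no member past the threshold. Over all kept LSK cells 0 of 34 members were called in AML against PBS by edgeR (adjusted p from 0.477), where 0.16% of 14364 genes passed, and 0 were called by DESeq2 or limma-voom. At an unadjusted p under 0.05 the count was also 0 of 34, against 10.5% of all genes. The median log2 fold change was -0.06 for the members and -0.03 for all genes, with 11 of 31 core genes above 0 and 20 below. Standard errors were 0.22 to 0.29. In G1 cells alone the member median was -0.14, and without AML replicate 1 it was -0.01, with 0 called in both. The 3 11S genes were all above 0, where 47% of all genes were. Psme3 stood at 19.5, 18.3 and 22.9 CPM in PBS and 33.04 and 25.04 CPM in AML, and both AML libraries lay above the 3 PBS libraries (log2 fold change 0.48 ± 0.23 (SE), adjusted p = 0.477). The class make-up also differed between the groups, with 32.9% and 22.3% of cells in MPP3 in AML against 4.39% to 11.6% in PBS. HSC made up 3.32% and 13.7% in AML against 20.5% to 23.9%. Within MPP2 and within MPP3 both AML libraries again lay above the PBS libraries in Psme3, and within HSC and MPP4 the groups overlapped. Psme2 stood at 282, 235 and 348 CPM in PBS and 338 and 347 CPM in AML, and PBS replicate 3 reached the AML range (log2 fold change 0.25 ± 0.26 (SE), adjusted p = 0.739). Psme1 stood at 794, 756 and 908 CPM in PBS and 882 and 882 CPM in AML. The groups overlapped on this TMM scale (log2 fold change 0.11 ± 0.27 (SE), adjusted p = 0.909). In the plain CPM given earlier, Psme1 and Psme2 were each higher in AML replicates 1 and 3 than in any PBS library. The overlap of these 2 genes hence depends on the scaling. After TMM scaling, Psme3 and the base subunit Psmd1 were the 2 members whose AML values both exceeded all PBS values, as held for 14.6% of all genes. No member had both AML values below all PBS values, as held for 17.4%. Which members split in this way changes with the scaling, since Psme1 and Psme2 also did so in plain CPM. The share of all genes in plain CPM is not given here.

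None of the catalytic subunits was called. Psmb5 stood at 305, 323 and 375 CPM in PBS and 185 and 335 CPM in AML, with AML replicate 1 the low value (log2 fold change -0.36 ± 0.29 (SE), adjusted p = 0.656, and 0.02 without that library). Psmb6 stood at 241, 244 and 297 CPM in PBS and 189 and 254 CPM in AML, again with AML replicate 1 lowest (log2 fold change -0.23 ± 0.26 (SE), adjusted p = 0.761). Psmb7 stood at 67.6, 72.3 and 70.6 CPM in PBS and 84.1 and 67.98 CPM in AML, with AML replicate 1 highest (log2 fold change 0.10 ± 0.22 (SE), adjusted p = 0.887). The 3 core genes with the lowest p were Psmc2 (log2 fold change -0.35 ± 0.24 (SE), adjusted p = 0.607), Psmb4 (-0.33 ± 0.25, adjusted p = 0.632) and Psmd1 (0.29 ± 0.22, adjusted p = 0.632). Psmc2, an ATPase, stood at 85.9, 89.1 and 73.6 CPM in PBS and 52.7 and 75.6 CPM in AML. Psmb4, of the beta ring, stood at 157, 192 and 177 CPM in PBS and 117 and 161 CPM in AML. Psmd1, of the base of the cap, stood at 64.02, 55.4 and 57.02 CPM in PBS and 81.04 and 64.3 CPM in AML. In Psmc2 and Psmb4 AML replicate 1 lay below every other library and AML replicate 3 lay within the PBS range.

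**Figure D5:**
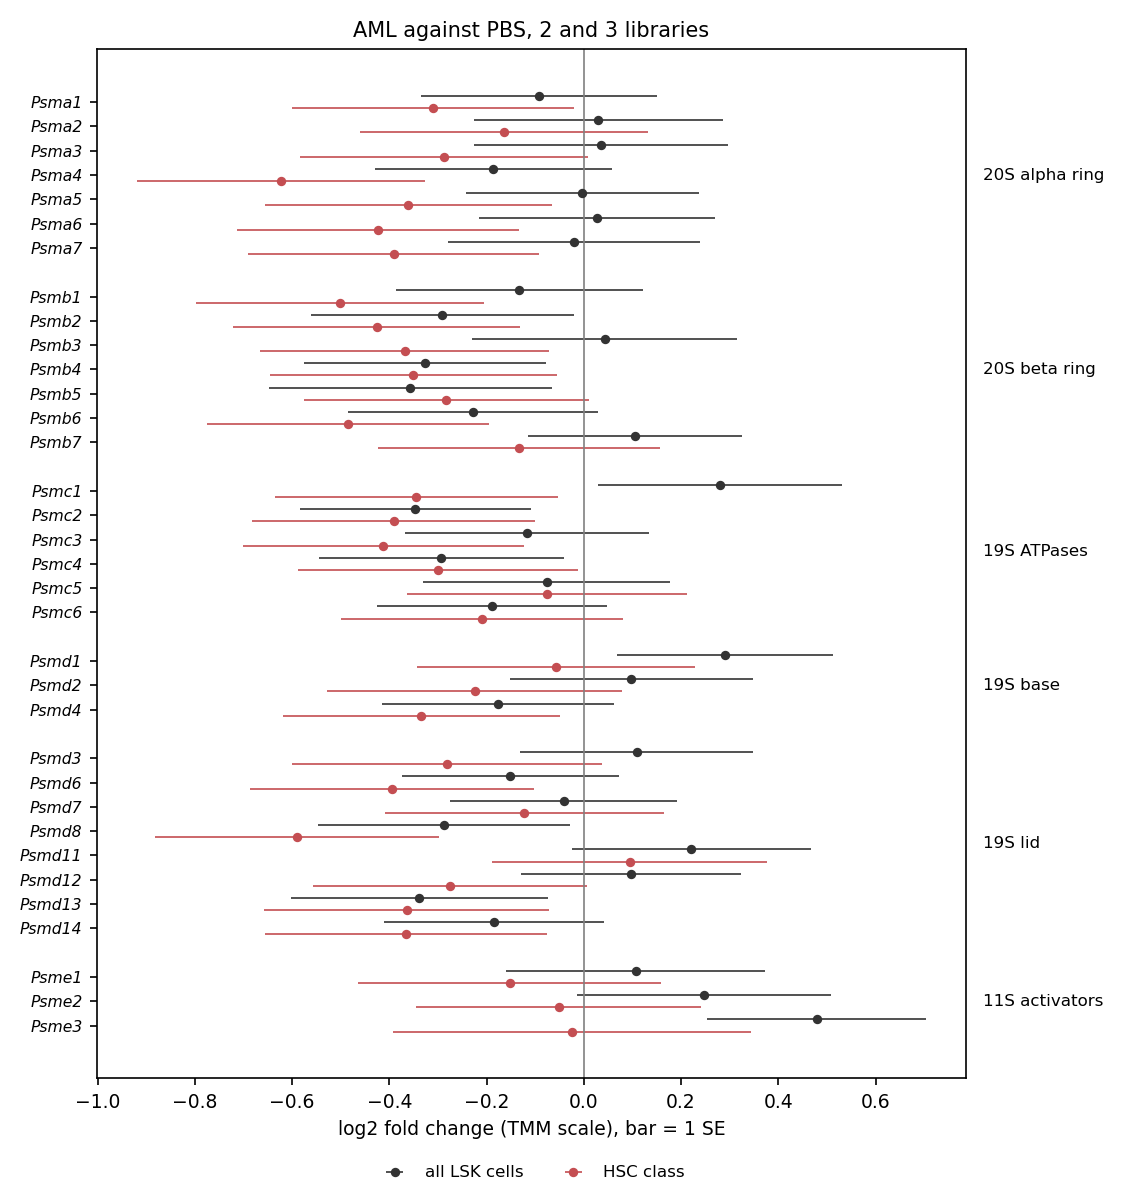
Points give the log2 fold change of each member in AML against PBS over all LSK cells (dark) and in the HSC class (red), from edgeR with 2 AML and 3 PBS libraries, with bars of 1 SE. Over all cells the points lie on both sides of 0, from -0.36 to 0.48, and in the HSC class 33 of 34 lie below 0, with no call in either.

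Within the classes the count of called members was again 0 of 34 in each, by edgeR and by DESeq2 (limma-voom was run over all LSK cells only). All genes passed at 0.178% in HSC, 0.0399% in MPP2, 0.0486% in MPP3 and 0.0325% in MPP4. The HSC class leaned most to lower values, with 33 of 34 members below 0, against 46.9% of all genes above 0, and its median log2 fold change was -0.32 against -0.03 for all genes. In HSC both AML libraries lay below every PBS library in 17 of 31 core members, against 16.3% of all genes. In AML replicate 1 the values of these members rest on 1 UMI (Psmd3) to 19 UMIs (Psma7). At an unadjusted p under 0.05 the members numbered 2 (Psma4 and Psmd8), against 4.16% of all genes, and 0 in the other 3 classes, against 7.56% of all genes in MPP2, 7.39% in MPP3 and 5.93% in MPP4. Psma4, of the alpha ring, stood in HSC at 269, 241 and 245 CPM in PBS and 108 and 181 CPM in AML (log2 fold change -0.62 ± 0.30 (SE), adjusted p = 0.992). The lid subunit Psmd8 stood at 191, 180.0 and 179.5 CPM in PBS and 67.6 and 136 CPM in AML (log2 fold change -0.59 ± 0.29 (SE), adjusted p = 0.992). Psmb1, of the beta ring, stood at 366, 351 and 401 CPM in PBS and 162 and 307 CPM in AML (log2 fold change -0.50 ± 0.30 (SE), adjusted p = 0.992). AML replicate 1 supplied only 23 HSC cells and 8, 5 and 12 UMIs of these 3 genes. Without that library the HSC median was -0.24, with 32 of 34 members below 0 (the value for all genes is not given). With plain library sizes it was -0.15 beside 0.12 for all genes, with 25 of 34 below 0. The erythroid markers moved with the groups in HSC. The 6 together held 2060.4, 175 and 909.7 plain CPM in PBS and 48.9 and 78.6 in AML, and the 4 that were tested, all hemoglobin genes, were called lower in AML, led by Hbb-bs (-5.81 ± 0.47 on the log2 scale, adjusted p = 2.79e-31). The sort markers Kit, Ly6a and Ptprc also moved with them, at 386 to 518 in PBS and 646 to 685 in AML in plain CPM with no call. The part of either list in the HSC values was not tested.

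In MPP2 the median log2 fold change was -0.15, and 3 of 31 core genes and all 3 11S genes were above 0, against 47.9% of all genes. The lowest p among the core genes there were those of Psmd13 (log2 fold change -0.63 ± 0.30 (SE), adjusted p = 0.651), Psmb4 (-0.46 ± 0.27, adjusted p = 0.692) and Psmc2 (-0.43 ± 0.27, adjusted p = 0.702). Psmd13 stood at 110.1, 157 and 89.6 CPM in PBS and 55.1 and 92.8 CPM in AML, so that AML replicate 1 was lowest and AML replicate 3 lay within the PBS range. The sort markers (189.7 to 213 in PBS and 267 to 295 in AML, plain CPM), the monocyte and macrophage markers (5.59 to 9.34 in PBS and 10.9 to 16.7 in AML) and the neutrophil markers (2.49 to 3.46 in PBS and 3.52 to 4.36 in AML) moved with the groups in MPP2, and their part was not tested. In MPP3 the median was -0.01, with 14 of 31 core genes and all 3 11S genes above 0, against 48.6% of all genes. It was 0.15 without AML replicate 1 (31 of 34 above 0, with the value for all genes not given) and 0.14 with plain library sizes beside 0.11 for all genes. The B and plasma cell markers moved with the groups in MPP3, where the 7 together held 21864, 53796 and 15132 plain CPM in PBS and 6372 and 7749 in AML, with Igha called lower in AML (adjusted p = 0.00458) and no call for the other 5 tested. Cluster 6 supplied 12.5%, 40.1% and 16.8% of MPP3 UMIs in PBS and 5.73% and 8.05% in AML. Without clusters 6, 7 and 8 the MPP3 median was 0.02, with 19 of 34 members above 0 and 0 called. The T and NK cell markers (238 to 252 in PBS and 172 to 227 in AML) and the monocyte and macrophage markers (14.02 to 21.5 in PBS and 37.4 to 43.6 in AML, plain CPM) also moved with the groups in MPP3, and their part was not tested. Of the 7 neutrophil markers 1 was tested there, S100a8, and it was called lower in AML (-5.74 ± 0.81 on the log2 scale, adjusted p = 0.00458), and the list held 113, 3.404 and 17.1 plain CPM in PBS and 0 and 8.46 in AML. Psmd1 had the lowest p among the core genes of MPP3 and stood at 53.6, 48.6 and 52.2 CPM in PBS and 81.4 and 65.5 CPM in AML, both AML libraries above the PBS libraries (log2 fold change 0.48 ± 0.29 (SE), adjusted p = 0.787). It was followed by Psmc1 (0.45 ± 0.31, adjusted p = 0.817) and Psmd3 (0.43 ± 0.32, adjusted p = 0.84). In MPP4 the median was -0.12, with 4 of 31 core genes above 0, against 47.8% of all genes. The B and plasma cell markers (315 to 321 in PBS and 219.7 to 281 in AML, plain CPM) and the T and NK cell markers (134 to 149 in PBS and 157 in both AML libraries) moved with the groups there, and their part was not tested. The lowest p in MPP4 were those of Psmc2 (log2 fold change -0.37 ± 0.24 (SE), adjusted p = 0.91), Psmb5 (-0.40 ± 0.26, adjusted p = 0.916) and Psmb6 (-0.36 ± 0.26, adjusted p = 0.925). Both AML libraries lay below every PBS library in 8 members in MPP2 and in 8 in MPP4, against 14.8% and 14.5% of all genes, and in 1 member in MPP3 (Psmd4) against 12.6%. They lay above in 1 member in MPP2 (Psme3), 3 in MPP3 (Psmd1, Psmd12 and Psme3) and 1 in MPP4 (Psmd1), against 14.1%, 12% and 13.2% of all genes.

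Of the 11S genes in HSC, Psme1 had a log2 fold change of -0.15 ± 0.31, Psme2 of -0.05 ± 0.29 and Psme3 of -0.02 ± 0.37 (SE, adjusted p = 0.992, 0.992 and 0.995), and each of these standard errors is larger than its fold change. Psme3 in MPP3 stood at 20.005, 17.7 and 20.2 CPM in PBS and 33.1 and 23.9 CPM in AML (log2 fold change 0.45 ± 0.31 (SE), adjusted p = 0.81). In MPP2 it stood at 22.7, 22.5 and 24.7 CPM in PBS and 32.9 and 29.5 CPM in AML (log2 fold change 0.40 ± 0.24 (SE), adjusted p = 0.692). In MPP4 the groups overlapped (log2 fold change 0.25 ± 0.27 (SE), adjusted p = 0.931). Psme2 was at 0.12 in MPP2, 0.18 in MPP3 and 0.07 in MPP4 on the log2 scale, and Psme1 at 0.11, 0.18 and -0.01, with adjusted p from 0.92 upward. Whether the AML difference itself depended on the class or on the phase was tested with interaction terms. By class 0 of 34 members passed and 11 had an unadjusted p under 0.05, against 0.872% and 10.9% of all genes, and the lowest were Psma4 (edgeR adjusted p = 0.13), Psma6 (0.142) and Psmd13 (0.184). With no filter on low counts 2 members passed by class, Psma4 (edgeR adjusted p = 0.0309) and Psma6 (adjusted p = 0.0279), where 506 of 21591 genes passed. By phase 0 of 34 passed and 4 had an unadjusted p under 0.05, against 0.461% and 7.72% of all genes, the lowest being Psmd2 (adjusted p = 0.44), Psma6 (0.569) and Psmb2 (0.605). For Psme1, Psme2 and Psme3 the adjusted p was 0.617, 0.492 and 0.891 by class and 0.911, 0.931 and 0.76 by phase.

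None of the other pathway genes was called in AML against PBS over all LSK cells by edgeR, and 3 had an unadjusted p under 0.05. These were Nfe2l1, which encodes a transcription factor of proteasome genes, the ubiquitin gene Ubb and the peptide transporter gene Tap1. Nfe2l1 stood at 31.7, 18.3 and 27.9 CPM in PBS and 72.8 and 36.4 CPM in AML, with AML replicate 1 the highest (log2 fold change 1.01 ± 0.30 (SE), adjusted p = 0.262). Ubb stood at 2374, 3903 and 2410.2 CPM in PBS and 1251 and 2118 CPM in AML, with both AML libraries below the PBS libraries (log2 fold change -0.78 ± 0.35 (SE), adjusted p = 0.46). Tap1 stood at 29.1, 37.8 and 30.6 CPM in PBS and 51.1 and 41.1 CPM in AML, with both AML libraries above them (log2 fold change 0.49 ± 0.22 (SE), adjusted p = 0.472). The immunoproteasome subunits, which share interferon induction with Psme1 and Psme2, had log2 fold changes of -0.32 ± 0.31 for Psmb8, -0.17 ± 0.27 for Psmb9 and -0.36 ± 0.26 for Psmb10 (SE, adjusted p from 0.622). UMIs of Psmb8 per UMI of Psmb5, its constitutive counterpart, read across libraries only, numbered 2.68, 2.37 and 2.34 in PBS and 2.49 and 2.53 in AML, and the groups overlapped. UMIs of Psmb10 per UMI of Psmb7 numbered 2.39, 2.62 and 2.43 in PBS and 1.25 and 2.42 in AML, with AML replicate 1 the low value. UMIs of Psmb9 per UMI of Psmb6 numbered 1.77, 1.45 and 1.497 in PBS and 1.605 and 1.65 in AML. In the classes the only call among these lists was in the interaction of AML with class, for the ubiquitin fusion gene Rps27a (adjusted p = 0.0448).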

How the data were processed

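The deposited files are gene by barcode matrices of raw UMI counts, 1 per library, and a table of cells. The authors made the counts with Cell Ranger 7.0.1 on the GRCm38 (mm10) build and, per the labels, used R 4.2.2 and Seurat 4.3.0. They filtered the cells and assigned cluster, phase (from cell cycle scores) and class (from module scores). All 3 columns were used as given, and 19 other columns of the table were not used. Doublets were not called again here. Counts of the listed cells were summed per library and class, phase or cluster, leaving out sums of under 20 cells, so that the library was the replicate. Sums were fitted with the edgeR 4.0.16 quasi-likelihood test in R 4.3.3 (TMM factors, filterByExpr, Benjamini-Hochberg threshold 0.05), with library as a term for phases and classes and without it for AML against PBS. DESeq2 1.42.0 and limma 3.58.1 were alternatives, and Seurat 5.3.0 served for its cell cycle lists. Other alternatives were plain library sizes, no filter, thinning to 2000 UMIs per cell, G1 cells only, PBS libraries only, class and phase in 1 fit, a filter of at least 1000 genes and at most 10% mitochondrial UMIs on all barcodes, and leaving out each library. The steps were tested on simulated counts.

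The named genes were the 11S activators in every comparison, the catalytic subunits over all cells, and the 3 core genes with the lowest p in each comparison. Genes named for the smallest or largest change, or for lying outside a count, were picked after their values were seen. The members, gene lists and tests were chosen with earlier results of these data known.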

Additional observations from a re-analysis of the deposited data

Results flagged for a closer look

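Psme3 in G1 stood at 39.9 CPM in AML replicate 1, from 12 UMIs in 102 cells, far from the other 4 libraries, of which the nearest was at 18.2 CPM. Psmc3, an ATPase gene of the 19S cap, stood apart in PBS replicate 2 in all 3 phases, at 129.0 CPM in G1 (nearest library 86.5), 194.4 CPM in S (nearest 129.6) and 195.8 CPM in G2M (nearest 145.0). These are 4 of 56 sets of 4 or 5 sums examined, each set mixing PBS and AML libraries, and chance alone picks out about 1 set in 20.

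AML replicate 2 has no cell in the authors' table and entered no comparison of kept cells. Over all its 17055 barcodes and 7089569 UMIs, Psme3 held 62.1 plain CPM, above the 18.9 to 20.9 of all barcodes of the PBS libraries and the 27.2 and 25.8 of AML replicates 1 and 3. Its barcodes held a median of 320 UMIs, against 1003 in AML replicate 1 and 3770 or more in the others, and 106 of them passed a filter of at least 1000 genes and at most 10% mitochondrial UMIs. The summed core there was 4597, Psme1 629.5 and Psme2 180.1 plain CPM. The barcodes it shared with the other libraries, and their part in these values, were not tested.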

How the results depend on the processing

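Of 145 repeats of the member counts under alternatives, 134 lay within 1.5 times the value given and 11 did not. They include the AML comparisons and interactions, where the count given was 0 and a repeat of 0 says little. Apart from the interaction of AML with class, the 11 that moved were phase or class counts. Of 912 repeats for named genes, 864 kept their direction and side of the threshold, 26 lost and 2 gained a call. Of the rest, 2 turned direction, both for Psme1 with plain library sizes (-0.10 in MPP3 and -0.0047 in G2M), and 18 values that were never called changed sign. In MPP4 the count of 13 became 2 with plain library sizes, 4 with thinned cells, 7 with class and phase in 1 fit, and 5 to 17 when single libraries were left out. The MPP3 count became 16 with plain library sizes. With no filter 2 members passed in the interaction of AML with class, where 506 of 21591 genes passed. Without the library term the counts were 20 in G2M, 24 in S, 29 in MPP2, 18 in MPP3, 0 in MPP4 and 22 in the joint test of classes. Genes called in either direction then numbered 2780 of 12236 in G2M. Of 11705 genes they numbered 3135 in MPP3, 1361 in MPP4 and 3931 in the joint test. Those in S and MPP2 are not given here. With the replicate number as a block 0 members were called in AML against PBS over all cells and in each class, as without it. The numbers were not taken as pairs, since same-numbered libraries did not deviate together over 4149 genes (r = -0.0868 for PBS 1 with AML 1 and -0.247 for PBS 3 with AML 3). The cause of these changes was not tested. With 2 AML libraries, 1 of them with 23 HSC cells, and standard errors of 0.22 to 0.29 over all cells, small AML differences were not detectable.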
